A study of Homo sapiens with 9 samples.

Results

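The 60 genes described here encode cyclins and their kinases, mitotic kinases, and proteins of the spindle checkpoint, kinetochore, spindle, cytokinesis and chromosome condensation. They were taken by gene symbol from a list that was chosen with earlier results of these data known. Of the 60, 52 could be measured alone among 14207 genes. The other 8 lay on probe sets that also name another gene and are left out of every result: BUB1B (with PAK6), CENPN (CMC2), KIF20A (CDC23), KIF23 (KIF23-AS1), KIF4A (KIF4B), RACGAP1 (RACGAP1P1), NCAPG (LCORL) and SMC4 (MIR15B and MIR16-2). The RNA was from ARPE-19 cells, an established cell line of human retinal pigment epithelium. Cells were grown to confluence with 10% fetal bovine serum and then kept in medium with 1% bovine serum albumin. There were 9 arrays, 3 with vehicle alone, 3 with cigarette smoke condensate at 100 µg/ml and 3 with the condensate at 250 µg/ml. The condensate came as a 40 mg/ml solution in DMSO with 6% nicotine and was diluted in culture medium; neither the length of the treatment nor the make-up of the vehicle is given in the sources used here. Within a group the labels call the arrays 1, 2 and 3 and do not say whether they are separate cultures. The p-values therefore measure only the spread between these samples, and that spread may be technical.

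Progress through the cell cycle is driven by cyclins, which rise and fall in turn and switch on cyclin-dependent kinases. Cyclins D and E act in G1 and at entry into S phase, cyclin A in S and G2, and cyclin B with CDK1 at entry into mitosis, after which the spindle checkpoint holds the anaphase-promoting complex back until every kinetochore is attached. Many of the genes for these proteins are repressed together in resting cells and transcribed together in dividing ones. Mature retinal pigment epithelium divides little, while ARPE-19 cells divide in serum and slow at confluence.

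Values are log2 RMA summaries, which rank one gene across arrays but do not compare levels between genes. Array medians lay between 4.42 and 4.59, and within groups the correlation between arrays ran from 0.9697 to 0.9776 for vehicle, from 0.9796 to 0.9918 for the lower dose and from 0.9821 to 0.9919 for the higher. Of the retinal pigment epithelial markers, OTX2 lay at 8.38 to 9.28 and MITF at 6.76 to 7.81, and the epithelial keratin KRT8 at 10.29 to 11.49. Averaged over the 9 arrays, the retinal markers TYRP1 and PMEL lay at 6.68 and 4.66. SERPINF1, RLBP1 and TTR lay lower, at 3.23, 2.96 and 2.71. The epithelial genes KRT18 and TJP1 averaged 8.34 and 6.63, but KRT19 and CDH1 only 3.98 and 2.59. The visual-cycle gene RPE65 lay at 2.33 to 2.69 and the channel gene BEST1 at 2.56 to 2.85, both under the lower quartile of gene means (3.06) on all 9 arrays, so these defining markers of mature retinal pigment epithelium were near the bottom of the scale. Of the 9 leukocyte and endothelial genes, 8 lay at or below 4.22 on every array, among them the leukocyte gene PTPRC (2.52 to 2.84) and the endothelial gene CDH5 (2.54 to 2.76). CD68, a lysosomal gene on the leukocyte list, lay at 8.31 to 10.09.

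Promoter windows were read from RefSeq (GRCh38.p14), from 250 bases before to 50 after each start, and 41 of the 52 genes matched, with 53 windows. AURKA, BIRC5, BUB3, CCND1, CCNE2, CDK2, E2F8, FOXM1, TPX2, TTK and UBE2C were not matched. The 5 windows below are shown because they belong to genes on which the results turn: CCNB2, HMMR and CDC20, which have the lowest adjusted p-values of the set, PLK1, a central mitotic kinase, and CDC25A, a G1 gene with E2F sites. Each runs 5′ to 3′ on the strand of the gene, in lower case, with the motifs searched in capitals. The motifs were the cell cycle homology region or CHR (TTTGAA or TTCGAA), the CCAAT box (CCAAT) and the E2F site (TTGGCGC or TTCCCGC or TTCGCGC or TTGCCGC), each searched on both strands.
CCNB2, chr15:59104896-59105195, plus strand: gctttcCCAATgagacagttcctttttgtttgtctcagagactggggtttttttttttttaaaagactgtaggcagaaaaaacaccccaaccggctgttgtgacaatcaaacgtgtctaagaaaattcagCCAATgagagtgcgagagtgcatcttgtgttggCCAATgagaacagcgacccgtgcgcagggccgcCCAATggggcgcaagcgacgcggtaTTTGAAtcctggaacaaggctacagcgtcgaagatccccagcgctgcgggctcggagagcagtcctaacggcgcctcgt
HMMR, chr5:163460382-163460681, plus strand: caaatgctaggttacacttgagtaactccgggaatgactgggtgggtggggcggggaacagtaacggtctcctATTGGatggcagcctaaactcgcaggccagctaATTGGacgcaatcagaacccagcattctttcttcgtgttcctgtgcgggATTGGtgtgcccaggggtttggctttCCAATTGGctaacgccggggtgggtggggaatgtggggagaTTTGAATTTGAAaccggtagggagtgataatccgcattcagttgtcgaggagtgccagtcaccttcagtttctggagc
CDC20, chr1:43358731-43359030, plus strand: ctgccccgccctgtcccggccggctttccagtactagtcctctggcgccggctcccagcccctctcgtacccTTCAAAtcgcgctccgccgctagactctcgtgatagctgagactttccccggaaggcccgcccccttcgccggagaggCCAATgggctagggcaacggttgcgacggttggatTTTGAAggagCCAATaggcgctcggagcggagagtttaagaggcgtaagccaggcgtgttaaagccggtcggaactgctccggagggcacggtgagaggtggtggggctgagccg
PLK1, chr16:23678639-23678938, plus strand: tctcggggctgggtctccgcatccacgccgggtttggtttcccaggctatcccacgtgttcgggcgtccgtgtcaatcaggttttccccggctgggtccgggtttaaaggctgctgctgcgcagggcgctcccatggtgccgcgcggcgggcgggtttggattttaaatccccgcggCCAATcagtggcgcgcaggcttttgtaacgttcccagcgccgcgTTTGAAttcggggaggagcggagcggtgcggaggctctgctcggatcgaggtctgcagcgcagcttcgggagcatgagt
CDC25A, chr3:48188368-48188667, minus strand: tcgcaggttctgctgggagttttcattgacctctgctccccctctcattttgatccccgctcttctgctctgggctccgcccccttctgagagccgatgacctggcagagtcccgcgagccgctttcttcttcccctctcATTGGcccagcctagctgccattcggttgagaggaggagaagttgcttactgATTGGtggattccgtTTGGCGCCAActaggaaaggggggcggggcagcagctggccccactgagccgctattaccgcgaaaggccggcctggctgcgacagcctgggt

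In the CCNB2 window a CHR match began at base 222 and CCAAT matches at bases 7, 131, 164 and 197, counted from 1 at the 5′ end of the window. The PLK1 window had its CHR match at the same base, 222, and 1 CCAAT match at base 178. HMMR held CHR matches at bases 223 and 229 and 5 CCAAT matches, and CDC20 CHR matches at bases 73 and 186. The CDC25A window held no CHR match, but had E2F matches at bases 208 and 211 that overlap on opposite strands. Counted by window, CHR matches were in 30 of 53 windows (56.6%), against 16.35% of the 35116 windows in the RefSeq table. A CCAAT match was in 37 windows (69.81%, against 34.61% of all), an E2F match in 16 (30.19%, against 12.97%), and CHR together with CCAAT in 24 (45.28%, against 6.376%). Several windows were matched for 8 genes, and some of these overlap and hold the same site. Counted by gene, 27 of 41 had a CHR match, 32 a CCAAT match, 14 an E2F match and 22 CHR with CCAAT. The share of all RefSeq genes was not counted. Matches of different motifs overlapped in 3 places. Such a match is a run of letters, not evidence of a bound factor. The 22 genes with both CHR and CCAAT differed from vehicle by a median of 0.89 log2 units for 100 µg/ml and 0.42 for 250 µg/ml, and the 19 matched genes without both had 0.82 and 0.50. These medians were not tested against each other.

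The comparison of 100 µg/ml with vehicle asked how these genes differ at the lower dose. The mean was higher at 100 µg/ml than with vehicle in 51 of the 52 genes, where 40.8% of all genes had a higher mean. The median difference was 0.82 log2 units, or 1.77-fold, while the median over all genes was -0.05. Differences ranged from -0.03 for CENPA, the centromeric histone H3 variant, to 2.14 for the S-phase cyclin gene CCNE2, and 17 of the 52 were at least 2-fold higher (1.25% of all genes). None of the 52 passed limma's test with Benjamini-Hochberg adjustment over all genes (lowest adjusted p = 0.130), as against 0.0633% of all genes. At an unadjusted p under 0.05, limma put 34 higher and 0 lower, where 7.00% of all genes were higher and 7.65% lower. All 3 arrays at 100 µg/ml lay above all 3 vehicle arrays in 27 genes and below them in 0, against 6.41% and 11.9% of all genes. Leaving out single arrays moved the median between 0.57 (without vehicle array 2) and 0.94 (without vehicle array 3). Without vehicle array 3, 6 genes passed the test: CCNE1, CCNA2, CCNB2, TTK, SPC25 and HMMR, while 0.401% of all genes passed. RNA was taken from whole cultures, so more cells in cycle and more of each transcript per cell cannot be told apart.

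At 250 µg/ml the same genes stood closer to vehicle. The mean was higher at 250 µg/ml than with vehicle in 48 of 52 genes (42.7% of all genes), by a median of 0.48 log2 units or 1.40-fold, with a median of -0.04 over all genes. Differences ranged from -0.75 for SMC2, a core subunit of condensin, to 1.42 for MAD2L1, which encodes the spindle checkpoint protein MAD2, and 7 genes were at least 2-fold higher (1.35% of all genes). Again 0 genes passed limma's adjusted test (lowest adjusted p = 0.0827, for CDC20), against 0.549% of all genes. At an unadjusted p under 0.05 limma put 17 higher, where 8.74% of all genes were higher, and 1 lower, where 7.90% were lower. Arrays at 250 µg/ml lay wholly above the vehicle arrays in 14 genes and wholly below in 1, as against 8.61% and 14.3% of all genes. With each array centred on its median, or with a further quantile normalization, the count wholly above was 9. It was 21 without vehicle array 1, 28 without vehicle array 3 and 24 without array 3 of 250 µg/ml. Full separation is easier with an array left out, so those counts cannot be set against the 14. The share of all genes wholly above was not counted under these settings. The count that limma put higher at an unadjusted p under 0.05 was 8 without vehicle array 2 (7.37% of all genes). It was 11 and 10 without arrays 1 and 2 of 250 µg/ml (6.22% and 5.91% of all genes), and 11 without moderation of the variances (6.69%). The median was 0.26 without vehicle array 2 and 0.62 without vehicle array 3. Without vehicle array 3, CCNE1, CCNA2, CCNB1, TTK and HMMR passed, as did 2.08% of all genes. Without array 3 of 250 µg/ml MAD2L1 passed, as did 0.718% of all genes, and without array 3 of 100 µg/ml CDC20 did, as did 0.521%. Both dose comparisons use the same 3 vehicle arrays, so they are not independent of each other.

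**Figure D1:**
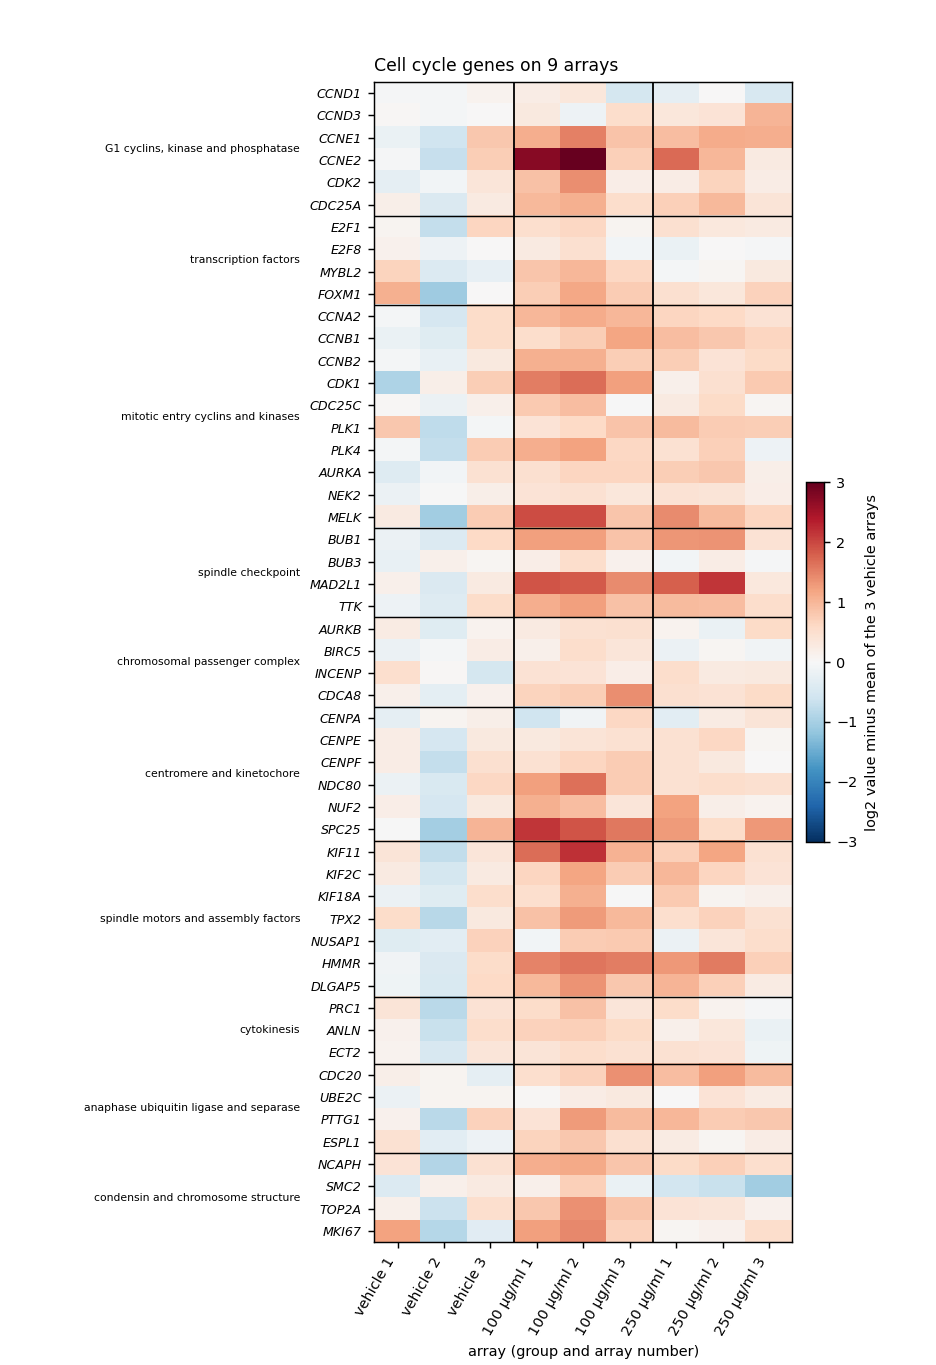
Each cell is the log2 value of 1 gene (rows, by role) on 1 array (columns) minus the gene's mean over the 3 vehicle arrays. Vehicle array 2 is the palest or bluest column in most rows, and array 2 of 100 µg/ml is often the reddest; the deepest reds belong to CCNE2, MELK, MAD2L1, SPC25 and KIF11.

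The arrays of a group were far apart for these genes. The mean of the 52 genes, relative to each gene's mean over the 9 arrays, was -0.35, -0.85 and -0.10 on vehicle arrays 1 to 3, 0.36, 0.58 and 0.22 on the arrays at 100 µg/ml, and 0.12, 0.11 and -0.09 on the arrays at 250 µg/ml. On this averaged measure the 100 µg/ml arrays lay above all others, while array 3 at 250 µg/ml lay within 0.01 log2 units of vehicle array 3. The median SD per gene was 0.49 with vehicle, 0.27 at 100 µg/ml and 0.25 at 250 µg/ml, against 0.21, 0.18 and 0.16 over all genes. Vehicle array 2 was the lowest of the 9 arrays in 37 of the 52 genes (12.87% of all genes), and array 2 of 100 µg/ml the highest in 34 (7.869% of all genes). Among the vehicle arrays, array 3 was the highest in 38 genes.

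Other transcripts set vehicle array 2 apart as well. The collagen gene COL1A1, a fibroblast marker, lay at 6.55 on it, against 3.50 to 3.75 on the other 8 arrays, while the other 3 measured fibroblast markers (COL3A1, DCN and LUM) lay at 3.76 or less on every array. The melanosome gene TYRP1 lay at 5.39 on vehicle array 2, at 7.79 and 8.77 on vehicle arrays 1 and 3, and between 5.67 and 7.09 on the 6 condensate arrays. The part of these differences in the results was not tested. All 6 condensate arrays lay above all 3 vehicle arrays in 11 genes (4.29% of all genes): CCNE1, CDC25A, CCNB2, NEK2, MAD2L1, CDCA8, KIF11, KIF2C, HMMR, CDC20 and NCAPH.

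**Figure D2:**
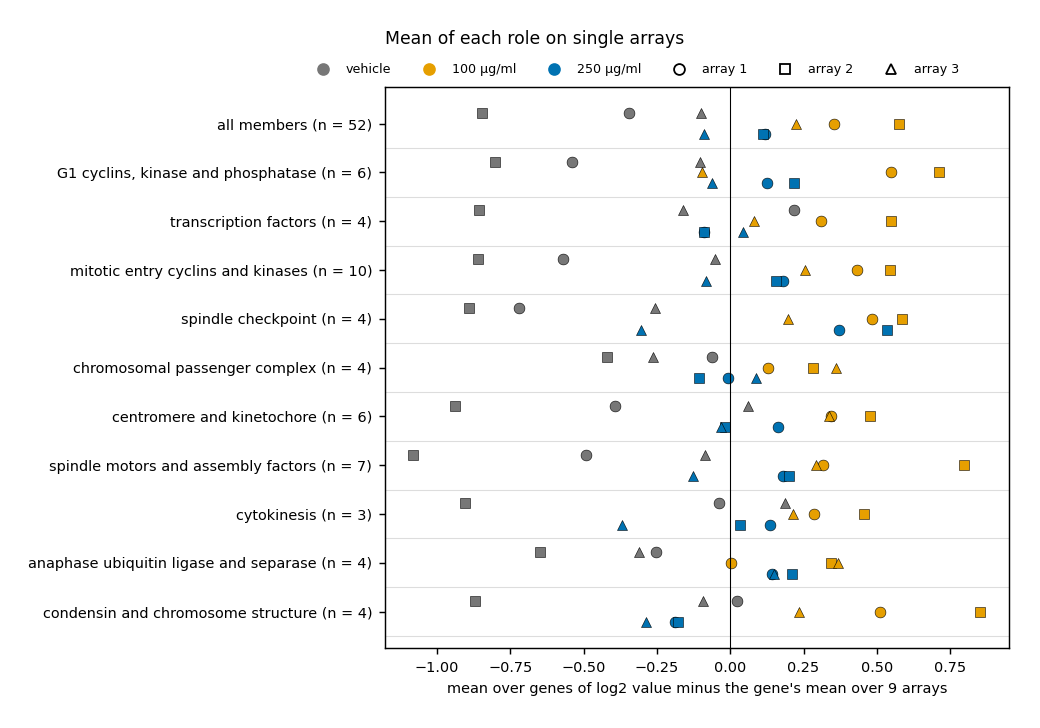
Each point is the mean, over the genes of 1 role, of the log2 value minus the gene's mean over the 9 arrays, for 1 array (grey vehicle, orange 100 µg/ml, blue 250 µg/ml; circle, square and triangle are arrays 1, 2 and 3). In most roles vehicle array 2 lies lowest. Over all members and in most roles, among them the spindle checkpoint and cytokinesis, array 3 of 250 µg/ml lies left of arrays 1 and 2 of that dose.

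In G1 the cyclin E genes had higher means than vehicle at both doses, and the cyclin D1 gene lay near vehicle. Over the 6 genes of G1 cyclins, kinase and phosphatase the median difference from vehicle was 0.84 at 100 µg/ml (0.64 to 1.08 with single arrays left out) and 0.65 at 250 µg/ml (0.53 to 0.72), and 0 of 6 passed the adjusted test. CCNE2, a cyclin E gene that drives entry into S phase, read 4.43, 3.76 and 5.20 with vehicle, 7.20, 7.45 and 5.17 at 100 µg/ml, and 6.15, 5.46 and 4.72 at 250 µg/ml. Arrays 1 and 2 at 100 µg/ml were above every vehicle array, but array 3 lay between the vehicle arrays, so the groups overlapped. The mean was 4.42-fold higher at 100 µg/ml (2.14 ± 0.64 log2 units, SE, n = 3 per group; limma's adjusted p = 0.222). Its sister gene CCNE1 read 5.44, 5.04 and 6.43 with vehicle, 6.72, 7.14 and 6.50 at 100 µg/ml, and 6.55, 6.75 and 6.74 at 250 µg/ml. Every condensate array lay above every vehicle array, by 1.15 on average at 100 µg/ml and 1.04 at 250 µg/ml, with limma adjusted p of 0.213 and 0.173. CDC25A, the phosphatase that removes inhibitory phosphates from CDK2, read 4.24, 3.64 and 4.34 with vehicle, 5.04, 5.15 and 4.60 at 100 µg/ml, and 4.80, 5.06 and 4.46 at 250 µg/ml. Its groups did not overlap at either dose, with differences of 0.86 and 0.70. Where a pair of differences is given for a gene here and below, the first is 100 µg/ml minus vehicle and the second 250 µg/ml minus vehicle, in log2 units.

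CCND1, cyclin D1, a growth factor-induced partner of CDK4 and CDK6, read 9.71, 9.68 and 9.85 with vehicle, 9.98, 10.08 and 9.23 at 100 µg/ml, and 9.48, 9.77 and 9.26 at 250 µg/ml. The groups overlapped, and the 95% interval of the difference from vehicle ran from -0.50 to 0.53 at 100 µg/ml and from -0.76 to 0.27 at 250 µg/ml. CCND3, another D-type cyclin, read 5.66, 5.57 and 5.64 with vehicle, 5.92, 5.48 and 6.16 at 100 µg/ml, and 5.97, 6.04 and 6.65 at 250 µg/ml. It was the gene with the largest positive difference between the doses: its 250 µg/ml arrays all lay above the vehicle arrays, by 0.60 on average (limma adjusted p = 0.229), and array 2 at 100 µg/ml lay below them. CDK2, the kinase bound by cyclins E and A, differed from vehicle by 0.82 at 100 µg/ml and 0.37 at 250 µg/ml, with overlapping arrays in both.

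**Figure D3:**
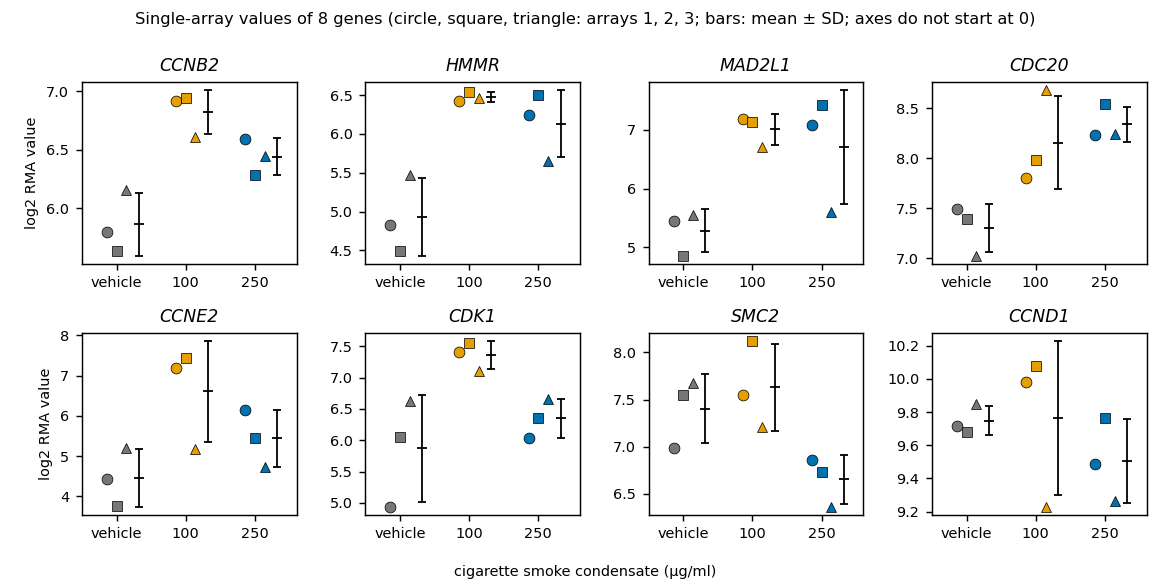
Log2 RMA values of 8 genes on each of the 9 arrays (circle, square and triangle are arrays 1, 2 and 3), with the mean and SD of each group as bars; the axes do not start at 0. CCNB2, HMMR, MAD2L1 and CDC20 have condensate arrays above all vehicle arrays, CCNE2 and CDK1 are highest at 100 µg/ml, SMC2 is lowest at 250 µg/ml and CCND1 overlaps throughout.

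The transcription factors of the cycle had smaller differences, and the vehicle arrays of MYBL2, FOXM1 and E2F1 were far apart. Their median difference over 4 genes was 0.61 at 100 µg/ml and 0.23 at 250 µg/ml, with 0 past the adjusted test. Without vehicle array 2 these medians were 0.25 and -0.07, and without vehicle array 1 the second was 0.41. MYBL2, or B-Myb, which activates late cell cycle genes with the MuvB complex, read 7.50, 6.40 and 6.58 with vehicle, 7.65, 7.83 and 7.45 at 100 µg/ml, and 6.77, 6.89 and 7.11 at 250 µg/ml. Vehicle array 1 lay above array 3 at 100 µg/ml, and the mean difference from vehicle was 0.82 at 100 µg/ml (limma adjusted p = 0.256) and 0.10 at 250 µg/ml. FOXM1, the forkhead factor of the G2 and mitosis programme, read 7.36, 5.23 and 6.31 with vehicle, 7.03, 7.45 and 7.06 at 100 µg/ml, and 6.78, 6.63 and 7.00 at 250 µg/ml. Its vehicle arrays spanned 2.13 log2 units, more than the differences of 0.88 and 0.50 at the lower and the higher dose. E2F1, an activator of S-phase genes, read 5.25, 4.45 and 5.81 with vehicle, 5.66, 5.79 and 5.25 at 100 µg/ml, and 5.65, 5.48 and 5.45 at 250 µg/ml, with overlap throughout. E2F8, an atypical repressor of the E2F family, had the lowest mean of the 52 genes (3.11 over the 9 arrays) and read 3.20, 2.92 and 3.08 with vehicle, 3.32, 3.54 and 2.99 at 100 µg/ml, and 2.86, 3.07 and 3.03 at 250 µg/ml.

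The cyclins and kinases of mitotic entry had a higher mean than vehicle in 10 of 10 genes at both doses. Their median differences were 0.89 at 100 µg/ml (0.63 without vehicle array 2) and 0.57 at 250 µg/ml, and none passed the adjusted test; at an unadjusted p under 0.05 limma put 9 and 6 of the 10 higher, where 7.00% and 8.74% of all genes were higher. Over all genes 40.8% and 42.7% had a higher mean. CCNB2, a B-type cyclin, named here after its values were seen because it shares the lowest adjusted p at 100 µg/ml, read 5.80, 5.64 and 6.16 with vehicle, 6.92, 6.94 and 6.61 at 100 µg/ml, and 6.60, 6.28 and 6.45 at 250 µg/ml. The 3 groups did not overlap at all, and the mean was 1.94-fold higher at 100 µg/ml (0.96 ± 0.16, SE, n = 3 per group, limma adjusted p = 0.130) and 1.49-fold higher at 250 µg/ml (adjusted p = 0.146). CCNB1, the main partner of CDK1 in mitosis, read 8.50, 8.34 and 9.26 with vehicle, 9.24, 9.44 and 9.89 at 100 µg/ml, and 9.63, 9.52 and 9.34 at 250 µg/ml. Vehicle array 3 lay just above array 1 at 100 µg/ml, and the means differed from vehicle by 0.82 and 0.79, nearly alike at both doses.

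CDK1 itself, the kinase that starts mitosis, showed a different order. It read 4.94, 6.06 and 6.62 with vehicle, 7.41, 7.55 and 7.11 at 100 µg/ml, and 6.04, 6.35 and 6.66 at 250 µg/ml. All 3 arrays at 100 µg/ml lay above every other array, with a mean 2.80-fold that of vehicle (1.48 ± 0.38, SE, n = 3 per group, limma adjusted p = 0.200), while those at 250 µg/ml overlapped the vehicle arrays. The mean at 250 µg/ml was -1.01 log2 units from that at 100 µg/ml (95% interval -1.88 to -0.14, limma unadjusted p = 0.0274, adjusted p = 1). PLK1, polo-like kinase 1, read 7.65, 6.08 and 6.78 with vehicle, 7.24, 7.43 and 7.70 at 100 µg/ml, and 7.79, 7.59 and 7.57 at 250 µg/ml. Vehicle array 1 lay within the range of the condensate arrays, and vehicle arrays 2 and 3 lay below all of them, with differences of 0.62 and 0.81. AURKA, the spindle pole kinase Aurora A, read 5.53, 5.84 and 6.36 with vehicle, 6.39, 6.55 and 6.56 at 100 µg/ml, and 6.65, 6.72 and 6.09 at 250 µg/ml, and only its 100 µg/ml arrays cleared all vehicle arrays. Of the other genes, MELK, a kinase abundant in dividing cells, differed by 1.59 at 100 µg/ml, the cyclin A gene CCNA2 by 1.04, the centriole kinase PLK4 by 0.98, the CDK1-activating phosphatase CDC25C by 0.57, and the centrosome kinase NEK2 by 0.40.

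The spindle checkpoint genes had the largest median difference at 250 µg/ml of the 10 roles, 0.92 over 4 measured genes (0.72 to 1.20 with single arrays left out), after 1.08 at 100 µg/ml; 0 of 4 passed the adjusted test at either dose. MAD2L1 read 5.45, 4.86 and 5.55 with vehicle, 7.18, 7.13 and 6.71 at 100 µg/ml, and 7.09, 7.43 and 5.61 at 250 µg/ml. The condensate arrays all lay above the vehicle arrays, but array 3 at 250 µg/ml exceeded vehicle array 3 by only 0.06. The mean was 3.29-fold higher at 100 µg/ml (1.72 ± 0.43, SE, n = 3 per group, limma adjusted p = 0.200) and 2.67-fold higher at 250 µg/ml (adjusted p = 0.167). TTK, the kinase MPS1 that starts checkpoint signalling, read 4.80, 4.55 and 5.49 with vehicle, 6.04, 6.17 and 5.82 at 100 µg/ml, and 5.89, 5.87 and 5.48 at 250 µg/ml. Its 100 µg/ml arrays lay above all vehicle arrays, and at 250 µg/ml array 3 was just below vehicle array 3. BUB1, a checkpoint kinase of the kinetochore, read 6.27, 6.04 and 7.04 with vehicle, 7.67, 7.68 and 7.30 at 100 µg/ml, and 7.76, 7.79 and 6.88 at 250 µg/ml. It showed the same arrangement, with differences of 1.10 and 1.03. BUB3, the adaptor that brings BUB1 to kinetochores, read 9.73, 10.11 and 10.02 with vehicle, 10.16, 10.49 and 10.08 at 100 µg/ml, and 9.87, 10.18 and 9.93 at 250 µg/ml, had the highest mean of the 52 genes (10.06) and overlapped in both comparisons.

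Genes of the chromosomal passenger complex, which corrects faulty attachments of chromosomes to the spindle, differed little. The median difference over 4 genes was 0.37 at 100 µg/ml and 0.27 at 250 µg/ml, with 0 past the adjusted test. Without vehicle array 1 the medians were 0.56 and 0.43, and without vehicle array 3 the second was 0.16. CDCA8, the borealin subunit, stood out, with 0.93 ± 0.20 at 100 µg/ml (SE, n = 3 per group, limma adjusted p = 0.181) and no overlap with vehicle at either dose. AURKB, its kinase Aurora B, read 6.22, 5.60 and 6.08 with vehicle, 6.23, 6.43 and 6.45 at 100 µg/ml, and 6.08, 5.77 and 6.55 at 250 µg/ml. The arrays at 100 µg/ml lay above vehicle by as little as 0.01 log2 units. BIRC5, or survivin, read 6.74, 6.85 and 7.14 with vehicle, 7.05, 7.44 and 7.27 at 100 µg/ml, and 6.73, 6.97 and 6.81 at 250 µg/ml. The 100 µg/ml arrays of BIRC5 lay above all 250 µg/ml arrays, and vehicle lay between and across them; with the mean of its 2 probe sets the difference of 100 µg/ml from vehicle was 0.14 in place of 0.34. INCENP, the scaffold, differed by 0.35 and 0.37 at the lower and the higher dose.

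At the kinetochore the NDC80 complex, which binds microtubules, had larger differences at 100 µg/ml than the CENP genes measured here. Over the 6 measured genes the median difference was 0.71 at 100 µg/ml (0.40 without vehicle array 2) and 0.43 at 250 µg/ml (0.20 without vehicle array 2), and 0 passed the adjusted test. SPC25, a subunit of that complex, read 4.38, 3.38 and 5.42 with vehicle, 6.53, 6.29 and 5.96 at 100 µg/ml, and 5.67, 4.94 and 5.69 at 250 µg/ml. At 100 µg/ml each array exceeded the vehicle arrays, with a mean 3.65-fold higher (1.87 ± 0.46, SE, n = 3 per group, limma adjusted p = 0.200), while the vehicle arrays themselves spanned 2.04 log2 units. NDC80, which gives the complex its name, read 4.87, 4.59 and 5.67 with vehicle, 6.27, 6.69 and 5.81 at 100 µg/ml, and 5.49, 5.56 and 5.53 at 250 µg/ml. Its 100 µg/ml arrays lay above all 6 others, and its 250 µg/ml arrays lay below vehicle array 3. NUF2, the partner of NDC80, differed by 0.79 and 0.50. CENPE, a kinetochore motor, read 4.63, 3.92 and 4.70 with vehicle, 4.70, 4.81 and 4.87 at 100 µg/ml, and 4.88, 5.04 and 4.47 at 250 µg/ml. CENPF, a large kinetochore and nuclear matrix protein, read 6.60, 5.67 and 6.86 with vehicle, 6.84, 7.01 and 7.15 at 100 µg/ml, and 6.83, 6.67 and 6.39 at 250 µg/ml. In both, vehicle array 2 alone was clearly lower than the other arrays. CENPA read 4.97, 5.33 and 5.43 with vehicle, 4.65, 5.13 and 5.86 at 100 µg/ml, and 4.92, 5.49 and 5.63 at 250 µg/ml, with the groups overlapping in every comparison and 95% intervals from -0.74 to 0.67 at 100 µg/ml and from -0.60 to 0.81 at 250 µg/ml.

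**Figure D4:**
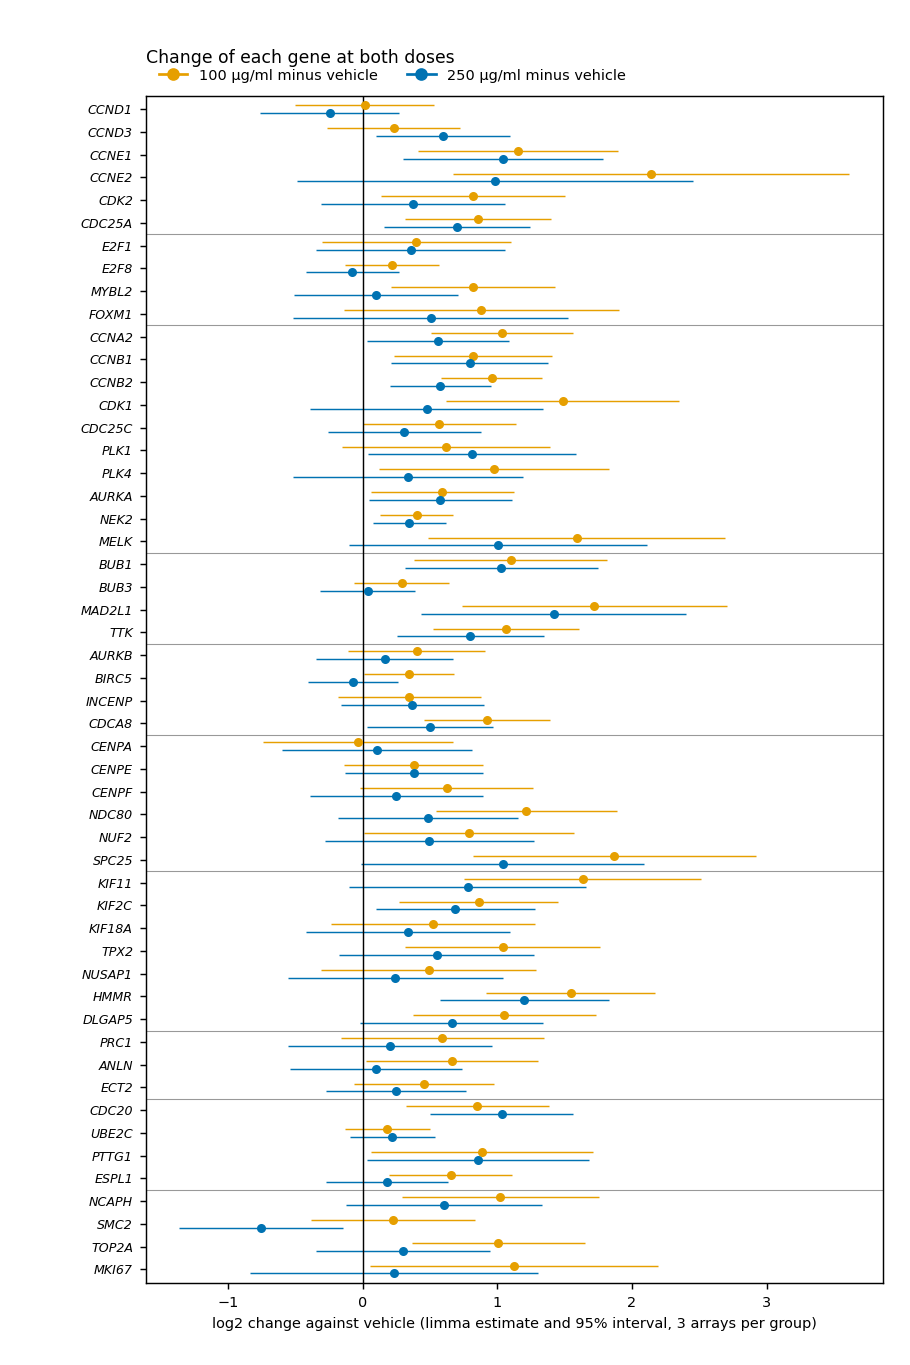
Log2 difference from vehicle of each of the 52 genes at 100 µg/ml (orange) and 250 µg/ml (blue), as limma estimates with 95% intervals, grouped by role. In 41 genes (13.2% of all genes) the 250 µg/ml mean lies between that of vehicle and a higher 100 µg/ml mean. SMC2 is the only one of the 52 whose interval at 250 µg/ml lies wholly below 0.

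Motors and assembly factors of the spindle had a higher mean at both doses in 7 of 7 genes. So did 51 of the 52 genes at 100 µg/ml and 48 at 250 µg/ml, against 40.8% and 42.7% of all genes. The median difference was 1.04 at 100 µg/ml (0.62 without vehicle array 2) and 0.66 at 250 µg/ml (0.41 without it), and none passed the adjusted test. HMMR, the hyaluronan receptor that also acts at spindle poles, read 4.82, 4.50 and 5.47 with vehicle, 6.42, 6.54 and 6.47 at 100 µg/ml, and 6.24, 6.50 and 5.65 at 250 µg/ml. Every condensate array lay above every vehicle array, with a mean 2.92-fold higher at 100 µg/ml (1.54 ± 0.27, SE, n = 3 per group, limma adjusted p = 0.130) and 2.30-fold higher at 250 µg/ml (adjusted p = 0.0862). KIF11, the kinesin that pushes spindle poles apart, read 5.90, 4.76 and 5.86 with vehicle, 7.19, 7.70 and 6.54 at 100 µg/ml, and 6.21, 6.70 and 5.95 at 250 µg/ml. Its groups did not overlap with vehicle at either dose, though array 3 at 250 µg/ml exceeded vehicle array 1 by only 0.05. TPX2, which activates Aurora A on the spindle, read 8.37, 6.99 and 8.11 with vehicle, 8.70, 9.10 and 8.80 at 100 µg/ml, and 8.32, 8.53 and 8.28 at 250 µg/ml. At 100 µg/ml all arrays were above vehicle and above the 250 µg/ml arrays. The depolymerizing kinesin KIF2C differed by 0.86 and 0.69 without overlap, the spindle factor DLGAP5 by 1.05 and 0.66, and KIF18A and NUSAP1 by 0.52 and 0.49 at 100 µg/ml with overlap.

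Of 7 cytokinesis genes only PRC1, ANLN and ECT2 were measured alone. Their median difference was 0.59 at 100 µg/ml and 0.20 at 250 µg/ml, with 0 past the adjusted test; without vehicle array 2 it was 0.22 and -0.20, and without vehicle array 3 the second was 0.42. ANLN, anillin, a scaffold of the contractile ring, read 8.39, 7.58 and 8.79 with vehicle, 8.94, 8.98 and 8.83 at 100 µg/ml, and 8.41, 8.59 and 8.06 at 250 µg/ml. The 100 µg/ml arrays lay above the 6 others by at least 0.04, and the 250 µg/ml arrays spread across the vehicle range. PRC1, which bundles microtubules of the spindle midzone, differed by 0.59 and 0.20, and ECT2, the exchange factor that activates RhoA at the division plane, by 0.46 and 0.25.

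Among genes of the anaphase ubiquitin ligase and separase, CDC20 had the largest difference at 250 µg/ml. The median difference from vehicle was 0.75 at 100 µg/ml (0.48 without vehicle array 2) and 0.54 at 250 µg/ml (0.35 without it), and 0 of 4 passed the adjusted test. CDC20, which activates the complex in mitosis, read 7.49, 7.39 and 7.03 with vehicle, 7.80, 7.98 and 8.68 at 100 µg/ml, and 8.23, 8.54 and 8.24 at 250 µg/ml. All 6 condensate arrays lay above all vehicle arrays, and the mean was 1.80-fold higher at 100 µg/ml (0.85 ± 0.23, SE, n = 3 per group, limma adjusted p = 0.210) and 2.05-fold higher at 250 µg/ml (adjusted p = 0.0827). Unlike most of the set, CDC20 had vehicle array 3 as its lowest array. UBE2C, the ubiquitin-conjugating enzyme of the complex, read 5.15, 5.38 and 5.41 with vehicle, 5.35, 5.54 and 5.60 at 100 µg/ml, and 5.32, 5.73 and 5.55 at 250 µg/ml, with overlap throughout. PTTG1, securin, the inhibitor of separase, differed by 0.88 and 0.86, and ESPL1, separase, by 0.65 and 0.18.

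Condensin and chromosome structure genes differed most between the doses. Their median difference from vehicle was 1.02 at 100 µg/ml (0.64 without vehicle array 2) and 0.26 at 250 µg/ml (-0.11 without it, 0.59 without vehicle array 1), and 0 of 4 passed the adjusted test. TOP2A, topoisomerase II alpha, which untangles sister chromatids, read 7.90, 7.10 and 8.24 with vehicle, 8.56, 9.12 and 8.59 at 100 µg/ml, and 8.16, 8.11 and 7.87 at 250 µg/ml. At 100 µg/ml the mean was 2.01-fold higher than vehicle (1.01 ± 0.28, SE, n = 3 per group, limma adjusted p = 0.213) without overlap, and the 250 µg/ml arrays lay within the vehicle range. MKI67, the proliferation marker Ki-67, which coats mitotic chromosomes, read 7.42, 5.36 and 5.88 with vehicle, 7.46, 7.65 and 6.92 at 100 µg/ml, and 6.28, 6.34 and 6.74 at 250 µg/ml. Vehicle array 1 was 0.04 log2 units under array 1 at 100 µg/ml, but above array 3 of that dose and above every 250 µg/ml array. The groups therefore overlapped at both doses, and the other vehicle arrays were below every condensate array. SMC2 read 6.98, 7.55 and 7.67 with vehicle, 7.55, 8.12 and 7.21 at 100 µg/ml, and 6.86, 6.73 and 6.36 at 250 µg/ml. The 250 µg/ml arrays were the lowest 3 of the 9, and the mean was -0.75 ± 0.27 log2 units from vehicle (SE, n = 3 per group, limma adjusted p = 0.223). NCAPH, a condensin I subunit, differed by 1.02 and 0.60, above all vehicle arrays at both doses.

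The comparison of 250 with 100 µg/ml asked whether the doses differ from each other. The mean was lower at 250 than at 100 µg/ml in 45 of 52 genes and higher in 7, where 54.4% of all genes were higher. The median difference was -0.30 log2 units, or 0.81-fold, against 0.01 over all genes, and ran from -0.44 (without array 3 of 100 µg/ml) to -0.22 (without array 2 of 100 µg/ml). limma called 0 of 52 after adjustment (lowest adjusted p = 1), as it called 0% of all genes. At an unadjusted p under 0.05, limma put 8 lower and 0 higher, where 0.859% of all genes were lower and 0.985% higher. The 8 were MYBL2, CCNB2, CDK1, BIRC5, NDC80, ESPL1, SMC2 and TOP2A. That count was 1 without array 2 of 100 µg/ml, 2 and 3 without arrays 1 and 2 of 250 µg/ml, 3 without its array 3, 4 without array 1 of 100 µg/ml, 14 without array 3 of 100 µg/ml and 16 without vehicle array 2, while the share of all genes lower ran from 0.415% to 2.38%. It was 17 when only the 6 arrays compared were fitted (1.62% of all genes) and 2 without moderation of the variances (0.69% of all genes). With array weights 29 were lower and 2 higher, where 7.40% of all genes were lower and 8.62% higher. The 3 arrays at 250 µg/ml lay wholly below the 3 at 100 µg/ml in 17 genes (2.86% of all genes) and wholly above in 0 (3.32%). Those 17 included all 4 measured genes of condensin and chromosome structure, whose median was -0.80, and none of the 4 spindle checkpoint genes, whose median was -0.26 (0.05 without array 3 of 250 µg/ml). The anaphase ubiquitin ligase and separase genes had a median of 0.00 (-0.15 to 0.08 with single arrays left out). Without array 3 of 100 µg/ml, 27 genes lay wholly below and 3 wholly above. With fewer arrays full separation is easier, and the share of all genes was not counted there, so the 27 cannot be set against the 17. Differences between these medians were not tested.

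Single genes followed that order with wide intervals. CCNE2 had the most negative difference, -1.16 log2 units (95% interval -2.63 to 0.31), and array 3 of 100 µg/ml lay among the 250 µg/ml arrays. SMC2 differed by -0.98 (95% interval -1.59 to -0.37, limma unadjusted p = 0.00582), MKI67 by -0.89 (95% interval -1.96 to 0.17) and TOP2A by -0.71 (95% interval -1.36 to -0.06). All 3 of these had 250 µg/ml arrays wholly below those at 100 µg/ml. Among the 7 with a higher mean at 250 µg/ml, CCND3 differed by 0.37, PLK1 by 0.19 and CDC20 by 0.18, all with overlapping arrays. Arrays of both doses were also set against each other by number, a pairing taken from these same data and not from the labels. No p-value or interval above uses this pairing. The median difference of 250 from 100 µg/ml was -0.17, -0.44 and -0.31 in numbers 1, 2 and 3. Over all genes it was -0.01, 0.01 and 0.04. The difference was negative in all 3 numbers in 26 of 52 genes (50%, against 13.62% of all genes), and positive in all 3 in 1 gene, CCND3 (1.923%, against 17.68%).

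**Figure D5:**
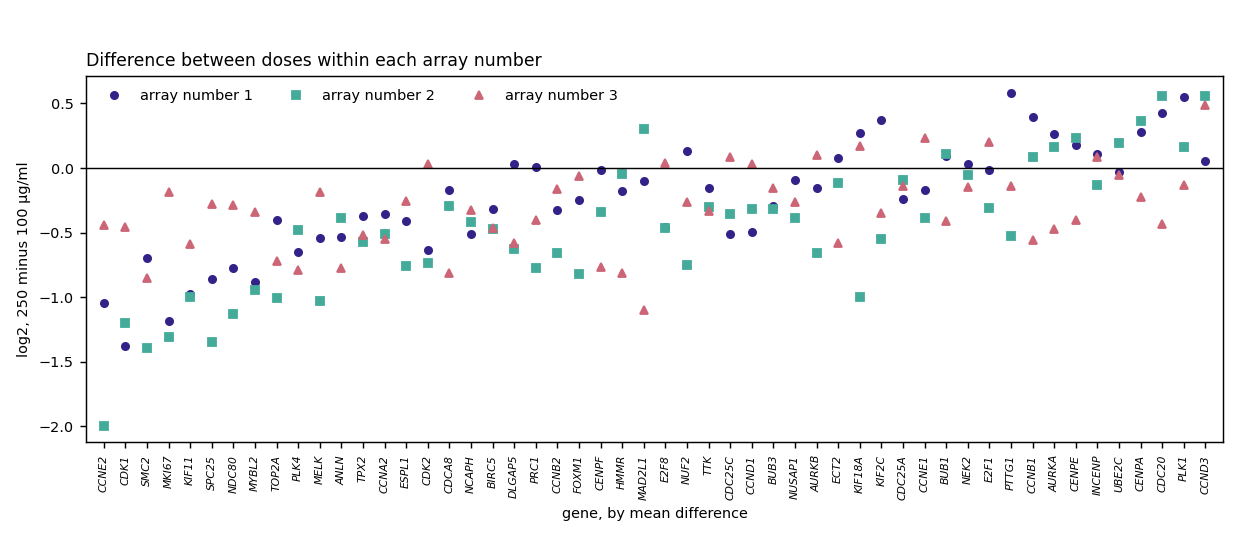
Log2 difference of 250 minus 100 µg/ml for each gene within array number 1 (circles), 2 (squares) and 3 (triangles), with genes ordered by mean difference. CCNE2, CDK1, SMC2 and MKI67 stand at the low end with all 3 numbers below 0, and CCND3 at the high end with all 3 above.

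Against vehicle the array numbers gave unequal differences. No pairing with vehicle was assumed, so these differences set single arrays side by side and are not matched repeats. At 100 µg/ml the median over the 52 genes was 0.56, 1.43 and 0.26 in numbers 1, 2 and 3, with 48, 50 and 42 genes higher. At 250 µg/ml it was 0.34, 0.99 and 0.01, with 41, 51 and 26 genes higher. In number 3, as many of the 52 genes were lower as were higher at 250 µg/ml. The medians over all genes were 0.02, -0.10 and -0.09 at 100 µg/ml, and 0.01, -0.10 and -0.05 at 250 µg/ml. The share of all genes higher was not counted by array number. At 100 µg/ml array 3 was the lowest of its group in 32 genes and the highest in 12, among them CDC20, CCNB1 and CDCA8. At 250 µg/ml array 3 was the lowest in 30 genes.

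Genes that surround this machinery in the pathway were read from 8 further lists of 91 genes, of which 69 were measured alone. None of the 69 passed limma's adjusted test in any comparison, and at an unadjusted p under 0.05 limma put 19 higher and 2 lower at 100 µg/ml, where 7.00% and 7.65% of all genes were. At 250 µg/ml limma put 6 higher and 5 lower, shares near the 8.74% and 7.90% of all genes. Replication licensing and clamp genes had a higher mean in 8 of 8 at both doses, against 40.8% and 42.7% of all genes. Their median difference was 0.82 for the lower and 0.46 for the higher dose (0.54 and 0.18 without vehicle array 2). CDC6, which loads the MCM helicase onto origins, read 7.13, 5.19 and 7.43 with vehicle, 8.93, 8.88 and 7.30 at 100 µg/ml, and 8.12, 7.84 and 7.28 at 250 µg/ml. Vehicle array 2 was by far the lowest, and array 3 at both doses lay with vehicle arrays 1 and 3. MCM2, a helicase subunit, read 7.28, 6.63 and 6.85 with vehicle, 7.86, 7.98 and 6.78 at 100 µg/ml, and 7.09, 7.30 and 6.59 at 250 µg/ml, with overlap throughout. The helicase subunits MCM4, MCM5 and MCM6 differed by 1.00, 0.90 and 0.79 at 100 µg/ml and by 0.51, 0.24 and 0.56 at 250 µg/ml, also with overlap. Cohesin and its regulators had medians of 0.34 (0.18 without array 2 of 100 µg/ml) and 0.18 (0.05 without vehicle array 2, 0.29 without vehicle array 3), led at 100 µg/ml by CDCA5, or sororin, which keeps sister chromatids joined (1.23 ± 0.34, SE; limma adjusted p = 0.211). SMC1A, a core cohesin subunit, differed by 1.12 and 0.66 with overlap, and SGO1, shugoshin, which protects cohesin at centromeres, by 0.66 with overlap and 0.70 without. The constitutive centromere network had medians of 0.58 and 0.29 (0.06 without vehicle array 2, 0.54 without vehicle array 3), with overlap in CENPI (1.28 and 0.53), CENPK (0.88 and 0.24) and CENPH (0.50 and 0.61). The core of the anaphase-promoting complex had medians of 0.03 and 0.17, which were -0.07 and 0.00 without vehicle array 1 and 0.19 and 0.27 without vehicle array 3. Differences among its genes had both signs. ANAPC5 differed by 0.23 with overlap and 0.67 with all 250 µg/ml arrays above vehicle, and ANAPC4 by -0.43 and -0.71 with all condensate arrays below vehicle. CDC27 differed by 0.63 without overlap and 0.34 with overlap, ANAPC10 by -0.35 and 0.22, and FBXO5, or EMI1, an inhibitor of the complex, by 0.90 and 0.22, these last with overlap. Pocket proteins and the MuvB core had medians of 0.40 (0.25 without array 2 of 100 µg/ml) and 0.31. Among them RBL1, or p107, a repressor of E2F genes, differed by 1.22 at 100 µg/ml without overlap and by 0.69 at 250 µg/ml with overlap, RB1 by 0.47 and 0.27, and E2F4, an E2F factor that pocket proteins bind, by 0.19 and 0.66, the last 2 genes with overlap.

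Brakes on the cycle did not form a common direction. The CDK inhibitors and entry brakes had a median over 10 genes of 0.03 for the lower and -0.14 for the higher dose (-0.05 to 0.12 and -0.22 to -0.03 with single arrays left out). CDKN1A, or p21, the CDK inhibitor induced by p53, read 6.93, 7.30 and 7.47 with vehicle, 7.81, 7.72 and 7.93 at 100 µg/ml, and 7.12, 7.74 and 8.10 at 250 µg/ml. Its 100 µg/ml arrays lay above all vehicle arrays (0.59 ± 0.24, SE, n = 3 per group, limma adjusted p = 0.322), and its 250 µg/ml arrays overlapped them. CDKN3, a phosphatase that acts on CDK1 and CDK2, read 6.51, 6.50 and 7.44 with vehicle, 7.83, 7.74 and 7.48 at 100 µg/ml, and 8.07, 7.68 and 7.65 at 250 µg/ml, above vehicle on all condensate arrays, with 0.98 ± 0.26 at 250 µg/ml (limma adjusted p = 0.118). CDKN1B, or p27, differed by 0.13 and -0.16 with wide overlap, and CDKN2B, or p15, by -0.55 with overlap and -0.64 without. WEE1, the kinase that restrains CDK1, differed by 0.24 and -0.04, with overlap. The other cyclins and CDKs had medians of 0.00 (-0.23 to 0.22 with single arrays left out) and -0.19 (-0.28 to 0.10). CDK8, a kinase of the Mediator complex, differed by 0.43 with overlap and 0.86 with all 250 µg/ml arrays above vehicle, and CCNG1, cyclin G1, by -0.64 and -0.67 with overlap. CDK6, a partner of the D-type cyclins, differed by 0.00 and -0.24; PCNA and CDK4 lay only on probe sets naming several genes. The serum and early growth response genes had medians of -0.01 (-0.20 to 0.11) and -0.17 (-0.24 to -0.07). MYC differed by -0.50 and -0.42, and FOS and JUN, subunits of AP-1, by 0.05 and -0.02 at 100 µg/ml and -0.15 and -0.19 at 250 µg/ml, with overlap in all 3. DUSP1, a phosphatase that turns MAP kinases off, read 11.20, 11.59 and 11.06 with vehicle, 10.42, 10.63 and 10.82 at 100 µg/ml, and 10.37, 10.60 and 10.63 at 250 µg/ml, with every condensate array below every vehicle array (-0.75 ± 0.17 at 250 µg/ml, SE, n = 3 per group, limma adjusted p = 0.0808). KLF6, a serum-responsive zinc finger factor, also had all condensate arrays below vehicle, by -0.76 at 100 µg/ml and -0.92 at 250 µg/ml (limma adjusted p = 0.0795).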

How the data were processed

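Affymetrix exon arrays measured total RNA of 9 ARPE-19 samples. The authors deposited log2 values, 1 for each probe set that covers a transcript; RMA and Partek were the tools and hg18 the build, per the submitters' processing notes, with no version, setting or filter. RMA normalizes arrays together, so a change in total RNA per cell would not show, and it compresses folds of dim genes. No detection calls were used.

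Of 17629 probe sets, 14378 named 1 gene, 2405 several and 846 none; 28 of the gene numbers were missing from RefSeq (GRCh38.p14), through which symbols were updated. The probe set with the highest mean was kept for 169 genes with more than 1, leaving 14207 genes. limma 3.58.1 (R 4.3.3) fitted 1 mean per group over all 9 arrays with empirical Bayes moderation; p-values were adjusted by Benjamini-Hochberg over all genes, with a threshold of 0.05. Errors are SEs from the fit, and intervals are 95%. The script was tested on simulated data. The number of arrays limits the precision.

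The genes, lists and tests were chosen with earlier results of these data known. Values on every array are given for a fixed set of genes, plus in each comparison the 3 largest and 3 lowest differences; of the other lists, the genes named are the 2 largest absolute differences per list and comparison and a few fixed genes, most by their differences alone. Arrays at 250 and 100 µg/ml that share a number deviated together from their group means (r = 0.6025, 0.4427 and 0.682), so the numbers were taken to pair both doses, from the data and not from the labels; with vehicle the lowest correlations were -0.0864 and -0.1419, and no pairing was assumed. Alternatives were other normalizations, filters, probe set rules, variance models, a replicate block and leaving out arrays.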

Additional observations from a re-analysis of the deposited data

How the results depend on the processing

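The median differences of the 52 genes kept their sign under 10 other settings and with each of the 9 arrays left out, and lay between 0.5728 and 0.9356 for 100 µg/ml against vehicle, 0.2575 and 0.624 for 250 µg/ml against vehicle, and -0.4388 and -0.2161 for 250 against 100 µg/ml with single arrays left out. The number of genes past the adjusted threshold, 0 in each comparison, was 1 with array weights (CDC20, with 234 genes called in all) and 1 when array 3 of each dose was left out (MAD2L1, of 167) for 250 µg/ml against vehicle, and 2 (CCNB2 and HMMR, of 73) and 1 (MAD2L1, of 47) for 100 µg/ml against vehicle. With single arrays left out it was 0 to 5 for 250 µg/ml against vehicle, 0 to 6 for 100 µg/ml against vehicle, and 0 for 250 against 100 µg/ml; the cause was not tested. The replicate block gave 0 genes of the 52 in each comparison and changed no call. Over all genes, calls at 250 µg/ml against vehicle numbered 78, and 1 to 296 under the alternatives; at 100 µg/ml they numbered 9, and 0 to 73. The dimmest gene, E2F8, averaged 3.11, near the lower quartile of gene means (3.06), and 3 arrays per group limit the precision. No group of 3 arrays was tested for a single outlying array.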
